A study of Mus musculus with 6 samples.

Results

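The gasdermins are a family of pore-forming proteins, and their RNA was measured in the colon of Adamts4 knockout (KO) and wild-type (WT) mice with acute colitis. The members were the rows of the deposited gene table whose symbol is Gsdma, Gsdmc, Gsdmc2, Gsdmc3, Gsdmc4, Gsdmd or Gsdme, 7 of 21899 rows, picked out by symbol. Both groups drank dextran sodium sulfate (DSS) at 2.5% for 7 days. DSS damages the epithelial lining of the colon when it is drunk. The KO group lacks ADAMTS4, a secreted protease that cleaves large matrix proteoglycans, and the WT group carries the gene. There were 3 libraries of bulk colon tissue for each genotype, and no animals without DSS were analysed here. The labels do not give the knockout allele, the strain, the age, the sex or the litter, nor do they state that each library came from 1 animal. Background strain and genotype cannot be told apart here, and a p-value measures only the spread between the libraries, which may be technical.

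A gasdermin is made as an inactive protein whose carboxy-terminal domain holds the amino-terminal domain in check. When a protease cuts the linker between them, the freed amino-terminal domains assemble into a ring in the plasma membrane, through which small cytokines leave and water enters, and the cell may die by pyroptosis. Members differ in the cells that make them and in the proteases that cut them. Gsdmd is cut by the inflammatory caspases Casp1 and Casp4 and is made by macrophages, neutrophils and gut epithelium. Gsdme is cut by granzyme B, among other proteases. In the mouse gut the Gsdmc genes belong to the epithelium and are known to be induced by the type 2 cytokines interleukin-4 and interleukin-13 during worm infection. Gsdma belongs mainly to skin and to the squamous lining of the upper digestive tract.

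On the GRCm38 mouse genome the 4 Gsdmc genes lie in tandem on the minus strand of chromosome 15 (GENCODE M21, matched by Ensembl identifier), within 136.3 kb. Gsdmc spans chr15:63775968-63808759, Gsdmc2 chr15:63824346-63845177, Gsdmc3 chr15:63857724-63878558 and Gsdmc4 chr15:63891264-63912297. Gsdmd lies 11.95 Mb away on the plus strand of the same chromosome (chr15:75862327-75867408). Gsdme is on chromosome 6 (chr6:50188888-50263862, minus strand) and Gsdma on chromosome 11 (chr11:98664351-98677708, plus strand). The span of Gsdme overlaps that of Mpp6 on the other strand, but the annotated exons of the 2 genes share 0 bases.

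Gsdmc2, Gsdmc3 and Gsdmc4 are near-identical copies, which matters for every count given for them. The first 90 coding bases of the 4 Gsdmc genes (GENCODE M21 transcripts, 5′ to 3′) are shown because they let the copies be compared by eye. Capitals mark bases that differ from Gsdmc4.
Gsdmc4: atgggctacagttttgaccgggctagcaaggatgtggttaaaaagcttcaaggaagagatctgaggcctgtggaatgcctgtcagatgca
Gsdmc2: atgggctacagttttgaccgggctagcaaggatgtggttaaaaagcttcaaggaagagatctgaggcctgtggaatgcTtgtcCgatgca
Gsdmc3: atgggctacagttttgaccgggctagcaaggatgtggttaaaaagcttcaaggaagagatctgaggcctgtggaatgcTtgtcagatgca
Gsdmc: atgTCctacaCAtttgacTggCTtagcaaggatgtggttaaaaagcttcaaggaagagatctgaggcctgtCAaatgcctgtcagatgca
Over this stretch Gsdmc2 differed from Gsdmc4 at 2 positions, Gsdmc3 at 1 and Gsdmc at 9.

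The ungapped stretch of 90 coding bases in which Gsdmc2 and Gsdmc3 together differ most from Gsdmc4 lies at coding bases 762 to 851 of Gsdmc4 and 756 to 845 of the other copies, with capitals as before. It shows the kind of sequence by which a read can be assigned to 1 copy.
Gsdmc4: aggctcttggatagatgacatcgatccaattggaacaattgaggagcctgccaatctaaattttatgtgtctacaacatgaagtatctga
Gsdmc2: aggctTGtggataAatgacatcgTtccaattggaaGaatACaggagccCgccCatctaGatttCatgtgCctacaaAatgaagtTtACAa
Gsdmc3: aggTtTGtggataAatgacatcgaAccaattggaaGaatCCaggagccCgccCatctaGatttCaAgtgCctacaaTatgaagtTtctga
Here Gsdmc2 differed from Gsdmc4 at 17 positions and Gsdmc3 at 16.

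Over their whole coding sequences of 1440 bases, Gsdmc2 and Gsdmc3 were identical at 97.1% of aligned positions, and Gsdmc4 at 93.8% with either of them. Gsdmc stood further off, at 87.0% to 87.5%, and Gsdmd at 56.5% to 57.0% against these 3 copies. The longest run shared by Gsdmc2 and Gsdmc3 was 317 bases. Of all windows of 100 bases in the transcript used for each gene, 71.4% of those of Gsdmc2, 69.5% of those of Gsdmc3 and 79.8% of those of Gsdmc4 occurred in no transcript of another gene. For Gsdmd and Gsdme every such window did, and for Gsdma 98.2%. The sources used here do not give the read length, nor how reads that fit several places were treated. The split of reads among Gsdmc2, Gsdmc3 and Gsdmc4 is therefore uncertain, and their sum is given beside the single genes. The pseudogenes Gsdmcl1, Gsdmcl2 and Gsdmcl-ps, which lie between and beside the copies, were not analysed here.

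The 6 libraries held 15786214 to 22932125 counts each. Adamts4 had 0 counts in every KO library and 900, 992 and 997 counts in the WT libraries, which fits the labels. KO 3 stood apart from the other libraries on the first principal component (63.8, against -43.1 to 22.4 for the rest), and its fibroblast markers were the lowest. Colon epithelium was well represented, with Cdx2, the intestinal transcription factor, at 182 to 287 CPM in KO and 131 to 212 CPM in WT libraries. CPM here means counts scaled by library size and TMM factors, and TPM the authors' values, which are also corrected for transcript length. Levels of different genes are compared on the TPM scale and differences between genotypes on the CPM scale. Log2 fold changes are KO minus WT, with their standard error (SE), and were tested with edgeR's quasi-likelihood test on counts, and adjusted p-values are over all 14553 genes tested. Calls are at an adjusted p below 0.05.

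Colon RNA of the gasdermins was dominated by the Gsdmc copies and Gsdmd. In TPM, Gsdmc4 stood first with 563 ± 183 in KO and 318 ± 148 in WT colons (mean ± SD, n = 3 each, as throughout). Gsdmc2 and Gsdmd came next, in an order that differed between the genotypes. In KO colons Gsdmc2 averaged 171 ± 19.9 TPM and Gsdmd 119 ± 8.0, while in WT colons Gsdmc2 averaged 110.0 ± 18.8 and Gsdmd 173 ± 15.9. Gsdmc3 followed with 53.2 ± 11.1 TPM in KO and 33.3 ± 8.11 in WT colons, then Gsdme with 13.0 ± 3.93 in KO and 19.6 ± 7.34 in WT colons. Gsdma was close to the bottom with 0.733 ± 0.331 TPM in KO and 0.890 ± 0.657 in WT colons. Gsdmc, the founding name of the cluster, had 1 count over all 6 libraries. Its 3-count detection floor lay between 0.128 and 0.186 CPM per library, so it was not detectable at this depth. Neighbours in this order did not overlap within a genotype, but in WT colons the lowest Gsdmc4 value (190.5 TPM) stood just above the highest Gsdmd value (184), and the lowest Gsdmc3 value (27.4) just above the highest Gsdme value (27.3).

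**Figure D1:**
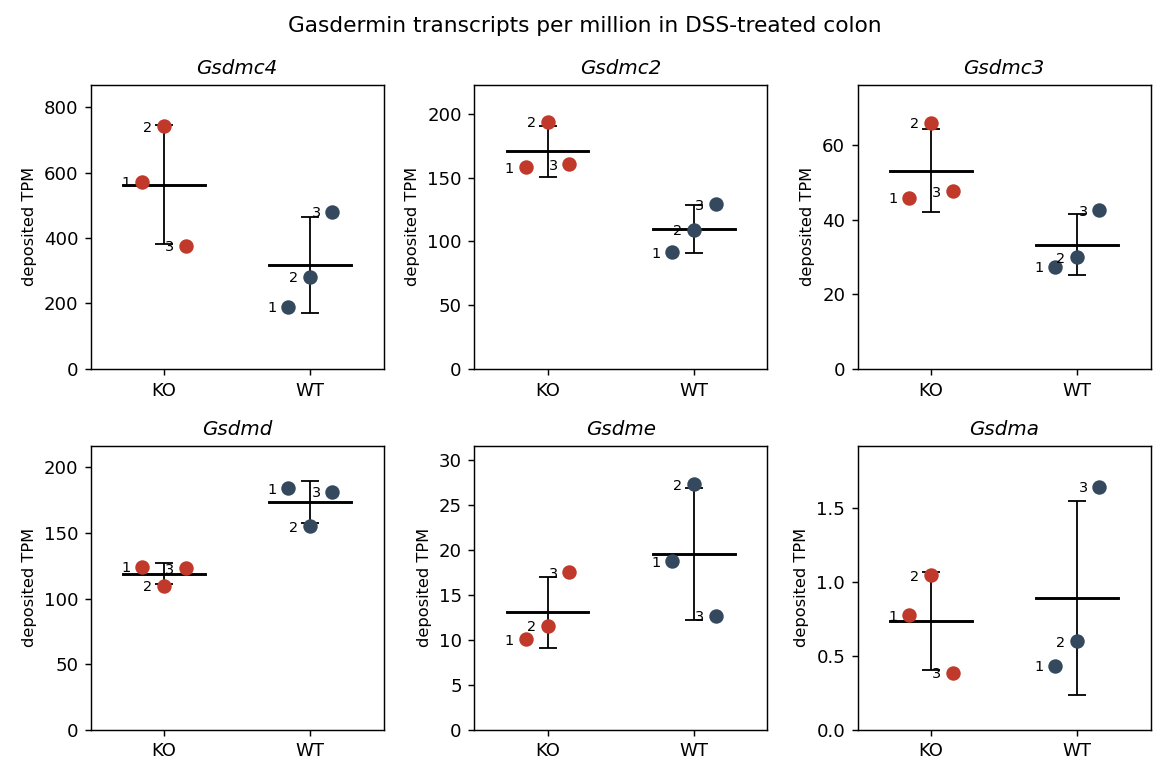
Deposited TPM (y axes, linear from 0) of the 6 gasdermin genes with at least 12 counts in every library, by genotype (x axes, KO left, WT right). Points are libraries labelled by replicate number, bars the mean and whiskers the SD over 3 libraries. Gsdmc2 and Gsdmc3 lie higher in every KO library than in any WT library and Gsdmd lower, while Gsdmc4, Gsdme and Gsdma overlap.

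Of the 7 members, 6 passed the expression filter, and all but Gsdmc were tested. In edgeR 0 of the 6 were called, in a table where 0.00687% of genes were called higher and 0.151% lower in KO. At an unadjusted p below 0.05, 3 members were higher in KO (Gsdmc2, Gsdmc3 and Gsdmc4) and 1 was lower (Gsdmd), where 5.17% and 7.85% of all genes tested had such a p in those directions. DESeq2, another count test, called 2 members higher, Gsdmc2 and Gsdmc3, against 0.806% of genes called higher. It called 0 members lower, against 2.97% of genes, and limma-voom called 0 of the 6 in either direction, against 0.199% of genes. Every KO value lay above every WT value for 2 of the 6 (Gsdmc2 and Gsdmc3), as for 9.35% of all genes tested, and below for 1 (Gsdmd), as for 10.2%. In either direction that is 3 of 6 members and 19.5% of genes. The Gsdmc2 and Gsdmc3 calls share sequence and cannot be read as independent of each other.

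Gsdmc2 had 187.8, 214 and 207 CPM in KO 1, KO 2 and KO 3, and 106, 123 and 150.2 CPM in WT 1, WT 2 and WT 3. Every KO value lay above every WT value, and the spread among KO colons was small. The mean was 203 ± 13.8 CPM in KO and 126 ± 22.5 CPM in WT colons, a 1.61-fold difference (95% interval 1.23 to 2.10). The log2 fold change was 0.69 ± 0.17 (SE), with an edgeR adjusted p of 0.162 and a DESeq2 adjusted p of 0.0156. Over the 15 alternative fits it stayed between 0.56 and 0.83, and DESeq2 still called it without KO 3 (adjusted p = 0.0387). The authors' deposited table lists it with a false discovery rate of 0.0196.

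Gsdmc3, the copy closest in sequence to Gsdmc2, had 50.03, 71.1 and 59.3 CPM in KO 1, KO 2 and KO 3, against 30.8, 30.7 and 45.3 CPM in WT 1, WT 2 and WT 3. Again no KO library fell to the WT range, although KO 1 and WT 3 came close. The log2 fold change was 0.76 ± 0.21, or 1.69-fold (95% interval 1.21 to 2.35), with an adjusted p of 0.204 in edgeR and 0.0487 in DESeq2. Without KO 3 the DESeq2 estimate was 0.77, against 0.76 with it, and was no longer called (adjusted p = 0.0970), and the authors' deposited table lists a false discovery rate of 0.0572 for it.

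Gsdmc4, the most abundant copy, had 669.9, 809 and 482 CPM in KO 1, KO 2 and KO 3, against 217, 314 and 552 CPM in WT 1, WT 2 and WT 3. The groups overlapped, because KO 3 lay below WT 3. Its log2 fold change had the widest interval of the 3 copies, at 0.86 ± 0.36 (1.81-fold, 95% interval 1.03 to 3.20), with an adjusted p of 0.367 in edgeR and 0.156 in DESeq2. It moved with single libraries, being 0.59 without WT 1 and 1.30 without WT 3, and was called in none of the 15 alternative fits.

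Summed over the 4 Gsdmc genes, which makes the assignment of reads among copies matter less, the level was 908, 1094 and 748 CPM in KO colons and 353, 467 and 747 CPM in WT colons. KO 3 and WT 3 were almost level, and the other libraries were well apart. The mean log2 sum was 0.86 higher in KO (two-sided exact permutation test, p = 0.1, the least that 3 libraries against 3 can give). With median-ratio factors or on the TPM scale KO 3 and WT 3 changed places, and p was 0.2. When Gsdmc2, Gsdmc3 and Gsdmc4 were counted as 1 gene in the edgeR fit, its log2 fold change was 0.81 ± 0.30 (adjusted p = 0.320).

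Ratios between the copies were taken on the CPM scale, which is not corrected for transcript length. The ratio of Gsdmc2 to Gsdmc3 was 3.75, 3.01 and 3.49 in KO colons and 3.43, 4.0 and 3.32 in WT colons. That of Gsdmc4 to Gsdmc2 was 3.57, 3.77 and 2.33 in KO and 2.05, 2.55 and 3.67 in WT colons. Both ratios overlapped between the genotypes (exact permutation p = 0.6 for each, two-sided), which does not show that the proportions were equal. KO 3, with the lowest Gsdmc4 among KO colons, and WT 3, with the highest among WT colons, differed from their groups in Gsdmc4 more than in Gsdmc2.

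**Figure D2:**
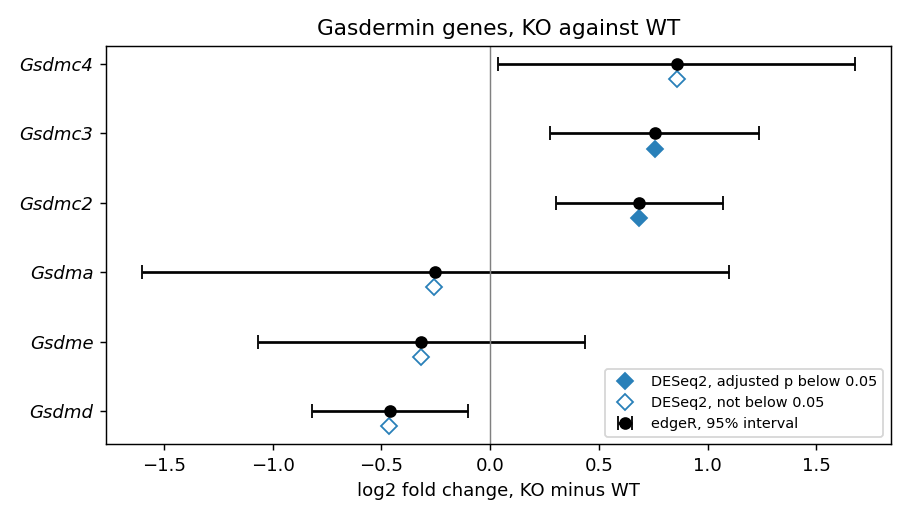
Log2 fold change of each tested gasdermin, KO minus WT (x axis), for 6 genes (y axis). Circles and whiskers are the edgeR estimate with its 95% interval, and diamonds the DESeq2 estimate, filled where its adjusted p was below 0.05. The Gsdmc copies lie between 0.69 and 0.86, and Gsdmd, Gsdme and Gsdma between -0.46 and -0.25.

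Gsdmd, the executioner of inflammasome signalling, lay on the other side. It had 121, 99.6 and 129 CPM in KO 1, KO 2 and KO 3, against 171, 142 and 169 CPM in WT 1, WT 2 and WT 3. All KO values were below all WT values. The mean was 117 ± 15.3 CPM in KO and 161 ± 15.9 CPM in WT colons. The log2 fold change was -0.46 ± 0.16, which is 0.727 of the WT level (95% interval 0.567 to 0.931), with an adjusted p of 0.281 in edgeR and 0.149 in DESeq2, so it did not pass. Its direction was the same in all 16 alternative fits, with log2 fold changes between -0.54 and -0.36 and adjusted p between 0.0746 and 0.625.

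Gsdme had 12.5, 13.4 and 24.5 CPM in KO 1, KO 2 and KO 3, against 21, 27.5 and 14.3 CPM in WT 1, WT 2 and WT 3. The groups overlapped, with KO 3 high among KO colons and WT 3 low among WT colons. The log2 fold change was -0.32 ± 0.33 (95% interval -1.07 to 0.44, adjusted p = 0.725), and it was -0.69 without KO 3 and -0.07 without WT 2.

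Gsdma was detected in every library, with 23, 24 and 12 counts in KO and 15, 17 and 44 counts in WT colons. Its level was 1.18, 1.49 and 0.644 CPM in KO 1, KO 2 and KO 3, and 0.641, 0.866 and 2.47 CPM in WT 1, WT 2 and WT 3. WT 3 alone held the highest value and the rest overlapped. The log2 fold change of -0.25 ± 0.59 (95% interval -1.60 to 1.10, adjusted p = 0.887) became 0.55 without WT 3. Markers of squamous epithelium were near 0, summing to 2.67 to 4.24 CPM in KO and 4.69 to 11.8 CPM in WT colons over 11 genes. The squamous markers Ivl and Dsg1a were at 0 in all libraries, and the high sum in WT 3 came mainly from Sbsn (9.21 CPM there, against 0.912 to 2.70 CPM in the other libraries). The part of squamous tissue in the Gsdma value of WT 3 was not tested. Its neighbours Gsdma2 and Gsdma3 had 0 counts in all 6 libraries.

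Shares of the summed gasdermin TPM were not tested, and the share of 1 member depends on the levels of the others. Gsdmd took 13.6%, 9.77% and 17.0% of the summed gasdermin TPM in KO colons, against 35.9%, 25.7% and 21.4% in WT colons. Gsdmc4 took 62.8%, 66.0% and 51.9% in KO colons, against 37.2%, 46.7% and 56.6% in WT colons, where the groups overlapped. The summed TPM of the 7 members was 920.4 ± 199 in KO and 655 ± 173 in WT colons. The ratio of the summed Gsdmc copies to Gsdmd, on the CPM scale, was 7.49, 11 and 5.79 in KO colons and 2.07, 3.29 and 4.42 in WT colons. The ratio of Gsdmc2 to Gsdmd in TPM was 1.27, 1.77 and 1.31 in KO colons, above 1 in each, and 0.498, 0.704 and 0.713 in WT colons, below 1 in each. Both ratios were chosen after their values were seen, and neither overlapped between the genotypes. That follows from their parts, which on these scales already separated the genotypes in opposite directions. The p of 0.1 that each gave in the two-sided exact permutation test was therefore fixed in advance and adds nothing to them.

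**Figure D3:**
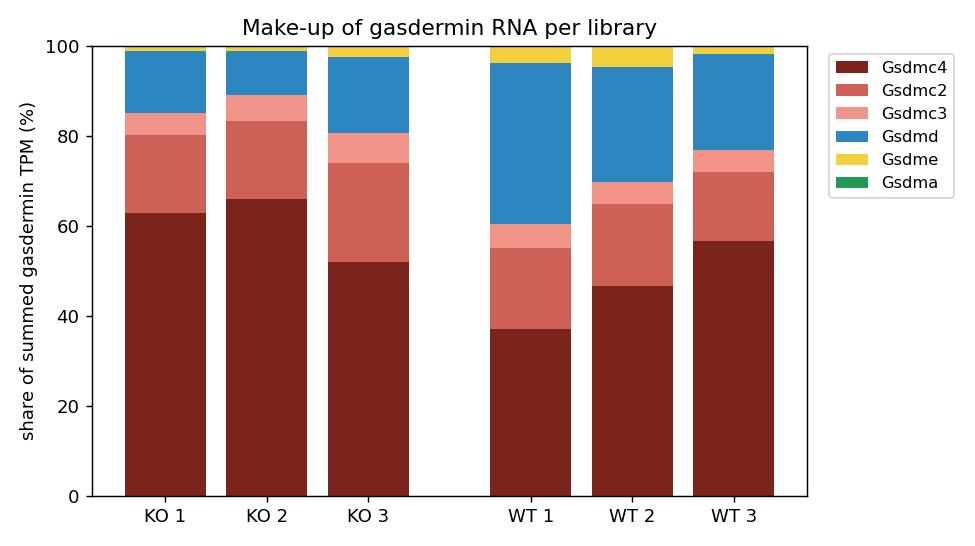
Share of the summed gasdermin TPM (y axis, percent) taken by each member in each library (x axis, KO left, WT right). Stacked bars show that Gsdmd (blue) took 9.77% to 17.0% in KO colons and 21.4% to 35.9% in WT colons, while Gsdma is too low to be seen.

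These are bulk tissue libraries, so fewer cells of a type and less RNA per cell cannot be told apart. The Gsdmc genes are epithelial. The 10 pan-epithelial markers summed to 12928 to 16901 CPM in KO and 12245 to 15102 CPM in WT colons, and 0 of 10 were called by edgeR or DESeq2, with a median log2 fold change of 0.13. Markers of surface colonocytes had a median of 0.27 over 8 genes, with 0 called by either tool, sums of 4698 to 12956 CPM in KO and 5254 to 7889 CPM in WT colons, and KO 3 highest. The 5 goblet cell markers had a median of 0.50, with sums of 15743 to 27890.0 CPM in KO and 13877 to 16689 CPM in WT colons. Of these 3 had log2 fold changes above 0 and 2 below. DESeq2 called 1, Agr2, a disulfide isomerase needed for mucin folding (0.91 ± 0.17), while the trefoil peptide gene Tff3 stood at -0.18 ± 0.18 and Zg16, a mucus lectin, at -0.08 ± 0.24, neither of them called.

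Set against the summed pan-epithelial markers, the Gsdmc differences shrank a little. The groups came to overlap for Gsdmc2 and Gsdmc3, as they already did for Gsdmc4 before. Gsdmc2 stood at 13.4, 16.6 and 12.3 CPM per 1000 CPM of epithelial markers in KO colons, against 7.00, 9.04 and 12.3 in WT colons. KO 3 and WT 3 were level on this scale, and the log2 difference was 0.61 (exact two-sided permutation p = 0.2). Gsdmc3 gave 0.67 (p = 0.3) and Gsdmc4 0.84 (p = 0.2) in the same exact test. Leaving out 1 library kept the difference between 0.41 and 0.81 for Gsdmc2 and between 0.45 and 1.28 for Gsdmc4. With the geometric mean of the same markers in place of their sum, KO 3 lay just above WT 3 for Gsdmc2. Its groups then stayed narrowly apart, while those of Gsdmc3 and Gsdmc4 overlapped. With the summed surface colonocyte markers as the divisor instead, the log2 differences of Gsdmc2, Gsdmc3 and Gsdmc4 kept their sign but were smaller. The groups overlapped there too, so how far the differences shrank depends on the markers chosen. Car1 alone gave 8524 of the 12956 CPM of that divisor in KO 3, against 1282 to 3585 CPM in the other libraries. The part of Car1 in the smaller differences was not tested.

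Gsdmd gave 8.67, 7.71 and 7.65 CPM per 1000 CPM of epithelial markers in KO colons, against 11.3, 10.5 and 13.8 in WT colons. These did not overlap, with a log2 difference of -0.56 (exact two-sided permutation p = 0.1, the smallest possible). With the summed surface colonocyte markers as the divisor the Gsdmd difference kept its sign, but the groups overlapped, with KO 1 above WT 1. KO 1 had 121 CPM of Gsdmd beside 4698 CPM of these markers, and WT 1 had 171 CPM beside 7889 CPM. The separation of Gsdmd thus depends on the markers chosen. Myeloid cells also make Gsdmd. All 7 macrophage and monocyte markers had log2 fold changes below 0 (median -0.80, 0 called by either tool), summing to 301 to 769 CPM in KO and 666 to 1061 CPM in WT colons, which overlap. All 8 neutrophil markers were below 0 (median -2.51, 5 called by DESeq2 and 0 by edgeR), with sums of 61.9 to 81.2 CPM in KO and 153 to 451 CPM in WT colons. Per 100 CPM of macrophage and monocyte markers, Gsdmd stood at 15.8, 16.6 and 42.9 CPM in KO colons and 25.6, 14.7 and 15.9 CPM in WT colons, where the groups overlapped (exact permutation p = 0.6). Among the other stromal and immune lists, fibroblast markers summed to 609.9 to 4027 CPM in KO and 2101 to 4468 CPM in WT colons, which overlap, as the T and NK cell markers do. All 7 fibroblast, all 7 T and NK cell and all 4 endothelial markers had log2 fold changes below 0. So did 4 of the 5 B and plasma cell markers, while all 5 smooth muscle markers lay above 0. The sums of 3 lists did not overlap, and none of these sums was tested. Smooth muscle markers summed to 3232 to 3803 CPM in KO and 1909 to 3037 CPM in WT colons, B and plasma cell markers to 159 to 306 in KO and 531 to 1235 in WT colons, and endothelial markers to 58.7 to 178 in KO and 195 to 242 in WT colons. Their part in the gasdermin values was not tested. KO 3 had the lowest sum of macrophage and monocyte markers (301 CPM) and the highest sum of pan-epithelial markers (16901 CPM). Its Gsdmd level was the highest of the KO colons (129 CPM). The part of either cell type in that level was not tested.

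**Figure D4:**
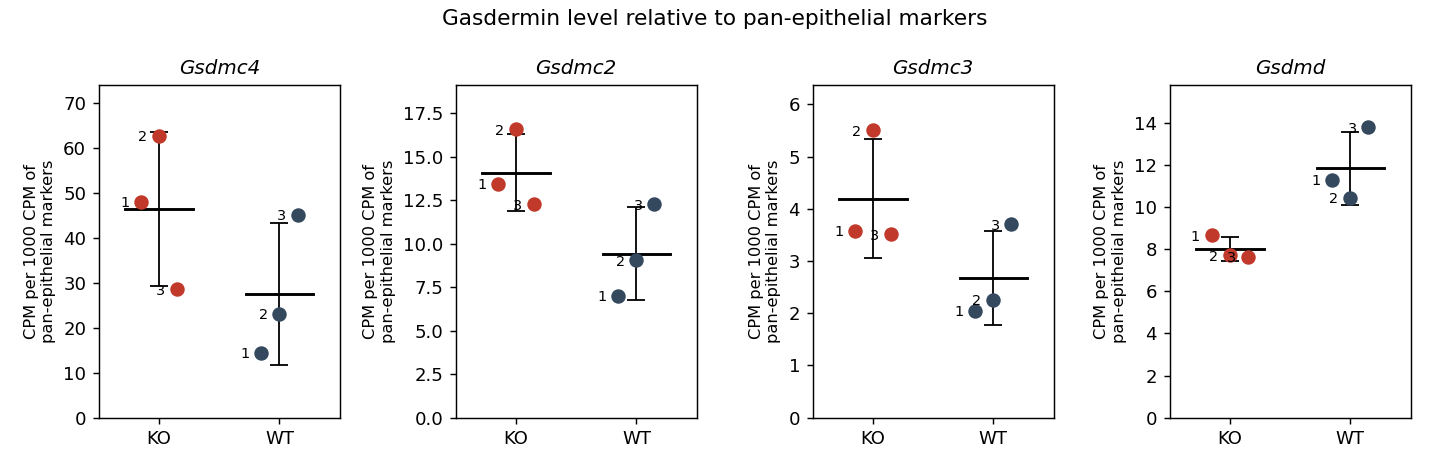
Level of 4 gasdermin genes as CPM per 1000 CPM of the summed pan-epithelial markers (y axes, linear from 0) by genotype (x axes, KO left, WT right), with points for libraries labelled by replicate, the mean and the SD. Gsdmd does not overlap between the genotypes (7.65 to 8.67 in KO, 10.5 to 13.8 in WT), while the 3 Gsdmc copies do, through WT 3.

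Genes that act around gasdermin pores were read from 7 lists with 64 genes, of which 52 were tested. In edgeR 0 of the 52 were called, 7 had an unadjusted p below 0.05, all of them lower in KO, and DESeq2 called 6, all lower. Of all genes tested, 7.85% were lower and 5.17% higher at that unadjusted p, and DESeq2 called 2.97% lower and 0.806% higher. Their median log2 fold change was 0.05, beside 0.03 for all genes tested. The DESeq2 calls fell in 4 of the lists.

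Pore cargo was the list with the lowest median, at -1.47 over 5 genes. Il1a, an alarmin cytokine, had 0.668, 0.805 and 0.268 CPM in KO colons, against 5.56, 4.43 and 2.25 CPM in WT colons. Its log2 fold change was -2.81 ± 0.51 (adjusted p = 0.0821 in edgeR, 5.74e-05 in DESeq2). Il1b, the cytokine best known to leave through Gsdmd pores, had 13.2, 16.2 and 4.88 CPM in KO colons and 51.5, 46.6 and 31.7 CPM in WT colons, with a log2 fold change of -1.92 ± 0.41 (adjusted p = 0.116 in edgeR, 0.000112 in DESeq2). Il33, an alarmin of epithelial and stromal cells, had -1.47 ± 0.46 (adjusted p = 0.247 in edgeR, 0.0243 in DESeq2), and without KO 3 DESeq2 gave -1.19 (adjusted p = 0.131), no longer a call. Groups did not overlap for any of these 3. Il18, which epithelium stores ready-made, averaged 89.7 ± 18.9 CPM in KO and 76.8 ± 20.5 CPM in WT colons, and Hmgb1, a nuclear protein released from dying cells, 262 ± 52.8 CPM in KO and 209 ± 21.4 CPM in WT colons. The cytokine genes with DESeq2 calls and the neutrophil and macrophage markers given above shared the direction between genotypes. Among WT libraries, WT 1 had the highest Il1a, Il1b and neutrophil sum (451 CPM) and the lowest macrophage sum (666 CPM). Il33 and the macrophage sum (1061 CPM) were highest in WT 3. The part of these cells in the cytokine values was not tested.

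Among 14 inflammasome sensors and adaptors, Nlrp3, the sensor of membrane damage, had 1.90, 1.49 and 1.61 CPM in KO colons, against 5.64, 5.30 and 4.27 CPM in WT colons. Its log2 fold change was -1.60 ± 0.28 (adjusted p = 0.0723 in edgeR, 0.000358 in DESeq2). Mefv, which encodes pyrin, came next at -0.75 ± 0.40 and Pycard, the adaptor ASC, at 0.36 ± 0.22, with edgeR adjusted p of 0.473 and 0.522. The list's median was -0.05. Nlrp6, a sensor of the gut epithelium, averaged 331 ± 35.1 CPM in KO and 291 ± 64.0 CPM in WT colons.

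Of the 10 listed proteases that cut gasdermins 8 were tested, with a median of 0.04. Gzma, the granzyme that cuts human GSDMB, which mice lack, had 3.13, 3.41 and 4.19 CPM in KO colons, against 12.9, 22.5 and 11.3 CPM in WT colons (log2 fold change -2.12 ± 0.31, adjusted p = 0.0593 in edgeR and 1.02e-07 in DESeq2). Casp12, a caspase of the inflammatory group, stood at -0.77 ± 0.28 (edgeR adjusted p = 0.325) and Gzmb, which cuts Gsdme, at -0.85 ± 0.37 (0.386). Neither Casp1 nor Casp8 was called by edgeR or DESeq2. Casp1 averaged 125 ± 29.4 CPM in KO and 93.1 ± 5.70 CPM in WT colons (0.43 ± 0.19, edgeR adjusted p = 0.386). Casp8, which cuts human GSDMC, averaged 140.0 ± 12.4 CPM in KO and 122 ± 14.5 CPM in WT colons. All 7 markers of T and NK cells, which make granzymes, had log2 fold changes below 0 (median -0.29, 0 called by either tool). They summed to 31.2 to 49.4 CPM in KO and 31.0 to 58.3 CPM in WT colons, which overlap. The part of these cells in the Gzma value was not tested. The neutrophil proteases Elane and Ctsg reached no more than 2 and 1 counts and were not tested.

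Neither membrane rupture and repair genes nor gasdermin regulators gave a call in edgeR or DESeq2. Among 9 tested genes of rupture and of the ESCRT machinery, which removes pores from the membrane, the smallest p-values belonged to Chmp3, Ninj1 and Chmp4c, with log2 fold changes of 0.14 ± 0.15, -0.14 ± 0.17 and 0.14 ± 0.24. Ninj1, the protein that tears the membrane after pores have formed, had 36.4, 26.3 and 30.3 CPM in KO colons, against 34.2, 34.9 and 33.6 CPM in WT colons. Among 9 regulators the Ragulator subunits Lamtor2 (0.35 ± 0.19) and Lamtor1 (0.24 ± 0.15) and the tumour suppressor Trp53 (0.22 ± 0.15) came first, with edgeR adjusted p between 0.474 and 0.571. Irf2, a transcription factor that drives Gsdmd, averaged 75.1 CPM in KO and 79.1 CPM in WT colons.

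The type 2 axis, which induces the Gsdmc genes in the gut of worm-infected mice, had 7 tested genes with a median of -0.13. Of these, 3 had log2 fold changes above 0 and 4 below. Il4ra, the receptor chain shared by interleukin-4 and interleukin-13, had 118, 80.7 and 83.6 CPM in KO colons, against 153, 174 and 139.7 CPM in WT colons. It lay lower in each KO library (-0.73 ± 0.18, adjusted p = 0.169 in edgeR and 0.0176 in DESeq2). Without KO 3 DESeq2 gave -0.65 (adjusted p = 0.0762), no longer a call. Retnlb, a goblet cell protein raised in worm infection, stood at -0.73 ± 0.38 and Stat6, the transcription factor below the receptor, at -0.22 ± 0.15 (edgeR adjusted p = 0.453 and 0.576). Above 0 were Pou2f3 (0.53 ± 0.54), Clca1 (0.20 ± 0.39) and Il13ra1 (0.19 ± 0.20), none of them called by edgeR or DESeq2. How the genes of this list relate to the Gsdmc levels was not tested. Il4 reached no more than 2 counts and Il13 no more than 3, so the cytokines themselves could not be compared at this depth.

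The promoter of Gsdmc3 is shown because it is the promoter of a DESeq2-called member held in the RefSeq promoter table used (GRCm38.p6), which matched 2 of the 7 members, the other being Gsdme. It covers chr15:63878509-63878808 on the minus strand, 250 bases before to 50 bases after the start, with a TATA-like motif, TATATAA, in capitals.
Gsdmc3: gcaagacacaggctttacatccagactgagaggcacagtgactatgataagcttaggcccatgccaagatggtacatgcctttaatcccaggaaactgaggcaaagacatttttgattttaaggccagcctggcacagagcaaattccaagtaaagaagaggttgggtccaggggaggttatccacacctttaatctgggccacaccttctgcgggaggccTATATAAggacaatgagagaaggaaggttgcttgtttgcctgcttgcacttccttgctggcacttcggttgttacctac
The motif begins 29 bases before the start, on the strand of the gene. Searched on both strands, TATATAA occurred in 3.2% of 32544 promoter windows of this length. Also searched, on both strands, were the STAT6 palindrome with a spacer of 4 bases (in 7.0% of windows), the STAT palindrome with a spacer of 3 (8.3%), a repeat bound by interferon regulatory factors (3.4%), AGATAA for GATA factors (11.2%) and TTTATNG for CDX factors (10.8%). None of these 5 is in the window shown, and none of the 6 motifs is in that of Gsdme. Only these letters were searched, and the window shown does hold tgataa, which differs from AGATAA in its first base. The matches and their absence say nothing of the factors.

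Profiles were compared by the root mean square difference between log2(CPM + 0.5) values over the 6 libraries, each gene centred on its own mean. The genes most like Gsdmc2 among those tested were Pank1 (0.023), Idh3a (0.066) and Cyb5b (0.082). Those most like Gsdmc3 were Tfpi2 (0.077), Idh3a (0.083) and Ptcd3 (0.089), and those most like Gsdmc4 were Pdp2 (0.14), Clic6 (0.17) and Greb1l (0.20). Pank1, a pantothenate kinase, had 24.9, 27.6 and 27.5 CPM in KO colons, against 13.9, 16.5 and 19.7 CPM in WT colons, and thus kept close to a fixed ratio with Gsdmc2. For Gsdmd the nearest were Ngfr (0.047), Ddit4 (0.062) and B3gnt8 (0.073), for Gsdme Hoxd8 (0.078), Il4i1 (0.13) and Insl6 (0.14), and for Gsdma Dhtkd1 (0.071), Asb16 (0.10) and Med12l (0.13). With so few libraries such nearest profiles exist for many genes, and they are given as a description. The added 0.5 flattens the profiles of genes near the floor, such as Dhtkd1 (0.161 to 1.23 CPM), and makes their differences smaller. Among the members themselves, Gsdmc2 and Gsdmc3 were closest (0.13), while Gsdmc4 and Gsdme were furthest apart (1.01).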

How the data were processed

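RNA was measured in 6 bulk colon libraries, 3 KO and 3 WT. Per the labels' protocols, RNA came from a Trizol extraction and the libraries from a SMARTER mRNA kit. Builds GRCm38, mm10 and mm39 appear, without a role, in the submitters' processing notes. The sources used here do not give the aligner, counter, annotation or strand setting. Read counts per gene are as the authors deposited them. The deposited TPM values were scaled to the same sum in each library by the authors. The deposited log2 fold change, p-value and false discovery rate come from the authors' own comparison, whose tool is not named.

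The test was edgeR 4.0.16 (R 4.3.3, TMM factors, default filter by group, 14553 genes). Its SE and intervals derive from the F statistic and are approximate. It was tested on simulated data. DESeq2 1.42.0, limma-voom (limma 3.58.1), other scaling factors, other filters, a replicate block, leaving out each library, limma on log2(TPM + 1), an adjusted p below 0.1 and summed copies were alternatives. Ratios and sums had exact permutation tests. No 2 libraries agreed within sampling noise (lowest chi-square per degree of freedom 45.0). Members and lists were chosen with earlier results of these data known. Named were all members, up to 3 genes with the smallest p in each list, the 3 nearest profiles of each member above 1 CPM, and Adamts4; markers and other list genes named beside a member were chosen after their values were seen. Identity came from global alignment of GENCODE M21 coding sequences. One listed protease gene is not reported here.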

Additional observations from a re-analysis of the deposited data

How the results depend on the processing

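Over all genes edgeR called 1 higher and 22 lower in KO. Leaving out 1 library gave 0 to 2 higher and 1 to 29 lower. Genes called higher and lower numbered 0 and 9 with median-ratio factors, 117 and 431 in DESeq2, 113 and 370 in DESeq2 without KO 3 (chosen after seeing the data), 3 and 66 with no filter, 2 and 66 with limma on log2(TPM + 1), and 20 and 114 at an adjusted p below 0.1. Limma-voom called 2 higher, and upper-quartile factors called 38 lower. Members called higher numbered 0 in edgeR, 2 in DESeq2 and 1 in DESeq2 without KO 3, and members called lower numbered 0 in every fit. Pathway list genes called lower, 0 in edgeR, numbered 6 in DESeq2, 4 in DESeq2 without KO 3, 3 at an adjusted p below 0.1, and 1 each with upper-quartile factors, no filter and limma on log2(TPM + 1).

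With the replicate number as a block, 3 genes were called higher, 78 lower and 2 pathway genes lower (Il1a and Il1b), with 0 members called. Same-numbered libraries did not deviate together (correlations of -0.45, -0.17 and -0.47). Deviations were taken within groups of only 3 libraries, so this cannot exclude a pairing, and the labels do not state one.

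Directions turned in these cases, none of them called. Leaving out 1 library gave Gsdma log2 fold changes of -0.60 (without WT 1) to 0.55 (without WT 3), with 0.023 without KO 3, and DESeq2 without KO 3 gave 0.022. Per epithelial markers Gsdma ran between -0.66 and 0.47 with 1 library left out, and was 0.27 without KO 3. Gsdmd per macrophage and monocyte markers (added after seeing the data) was 0.30. Chmp3 was -0.14 with limma on log2(TPM + 1), and Chmp4c ran between -0.13 (without KO 2) and 0.37 (without KO 1). The causes were not tested. Of the values that answer a comparison, 117 alternatives stayed on the same side or within 1.5 times, 35 moved and 3 turned. Gsdma, with 12 to 44 counts, and Gsdmc, with 1, are limited by depth.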
